A study of Mus musculus with 77 samples.

Results

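The response to corticosterone was followed in mouse adenocarcinoma cells that carry the mineralocorticoid receptor (MR, gene Nr3c2) and are labelled GRKO, that is, knockout of the glucocorticoid receptor (GR, gene Nr3c1). The comparison rests on 6 of the series' 77 samples, which are 3 libraries of cells given 100 nM corticosterone for 2 h and 3 libraries of cells given vehicle for 2 h. Of 24940 genes in the table, 18051 varied and 12517 also reached a linear value of 10 in at least 3 of the 6 libraries, and these were tested. All 6 libraries are of the same line, whose names share 1 line code, and all cells were kept in charcoal-stripped serum, from which steroids have been removed, before hormone was added. Parental MR cells, which carry MR and are not labelled GRKO, serve as the comparison line. They carry another line code in the RNA labels, so the GRKO label cannot be told apart from other differences between 2 separate lines. They have 3 vehicle libraries and 2 of 3 corticosterone libraries, at the same dose and time. The same GRKO line was also given 10 nM aldosterone for 2 h (3 libraries), and its vehicle libraries are those of the corticosterone comparison. Whether the replicates of a group came from separate cultures is not given in the labels, so the p-values measure the spread between these libraries, which may be technical.

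Corticosterone is the main glucocorticoid of rodents and binds both GR and MR, while aldosterone is the main mineralocorticoid. Both receptors are kept in the cytoplasm with chaperones, move to the nucleus once they bind hormone and recognise the same kind of DNA palindrome. In epithelia such as the kidney collecting duct and the colon, MR is known for raising Sgk1, the kinase that keeps sodium channels at the cell surface, and in many tissues GR raises Sgk1, Per1, Tsc22d3 and Fkbp5.

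The libraries held 41.2 to 58.7 M reads (mega-reads, from the column names), and the Nr3c2 transcript was present in all of them, at log2 values of 11.52, 11.38 and 11.26 with vehicle and 11.48, 11.50 and 11.47 with corticosterone. The Nr3c1 transcript was present as well. It was at 13.07 ± 0.017 with vehicle and 13.03 ± 0.028 with corticosterone (SD, n = 3 each), beside 12.76 to 12.82 in the vehicle libraries of parental MR cells, whose table was normalized separately. A knockout allele can still be transcribed, and these gene values do not show which part of the transcript was read, so they do not check the label, which is used here as given. As to cell type, 5 of 20 epithelial markers reached the filter, with Gata3 highest at a vehicle mean of 8.52. Of the 20, 8 were listed at 0, among them Epcam and Krt18. By contrast, 17 of 20 mesenchymal markers reached the filter, led by Vim at a vehicle mean of 17.58. Of 14 immune and endothelial markers 5 reached the filter, with Cdh5 highest at 9.97. The epithelial markers summed to 9.24 to 9.25 (log2) with vehicle and to a slightly lower 9.17 to 9.22 with corticosterone. The sums overlapped between groups for the mesenchymal markers, at 18.99 to 19.06 and 18.91 to 19.04, and for the immune and endothelial markers, at 10.48 to 10.51 and 10.44 to 10.49.

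On the first principal component, which held 48.0% of the variance, corticosterone library 1 (-0.28) lay beside vehicle libraries 1 and 3 (-0.49 and -0.36) and apart from corticosterone libraries 2 and 3 (0.45 and 0.59), with vehicle library 2 at 0.09. The SD over genes of its difference from vehicle libraries 1 and 3 was 0.041 and 0.040, smaller than the 0.052 and 0.057 from the other 2 treated libraries. On the second component, which held 15.2%, corticosterone library 1 was highest at 0.73. The others were at -0.61 to 0.14, with vehicle library 2 the lowest. Vehicle library 2 differed from corticosterone library 2 with an SD of 0.042, beside 0.048 and 0.043 from vehicle libraries 1 and 3.

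Corticosterone raised 29 genes and lowered 2 in the cells labelled GRKO, 0.232% and 0.016% of the genes tested (limma, adjusted p under 0.05). The 31 called genes, 0.248% of those tested, all had corticosterone and vehicle libraries that did not overlap. Genes that were not called, such as Klf9 and Tsku, also had groups apart. The share of all genes tested with groups apart is not given here, so this trait does not set the called genes off. On the log2 scale of the library values responses were small. The largest was 0.56 and the median over the 29 raised genes was 0.17, beside -0.00043 over all genes tested. The authors' deposited log2 fold changes were larger in size for all 31 genes, 1.48 against 0.33 for Per1 and 0.87 against 0.56 for Sgk1 for example. The authors' deposited adjusted p-values were under 0.05 for 78 genes (0.623%), 54 higher and 24 lower with corticosterone, and all 31 genes were among them.

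**Figure D1:**
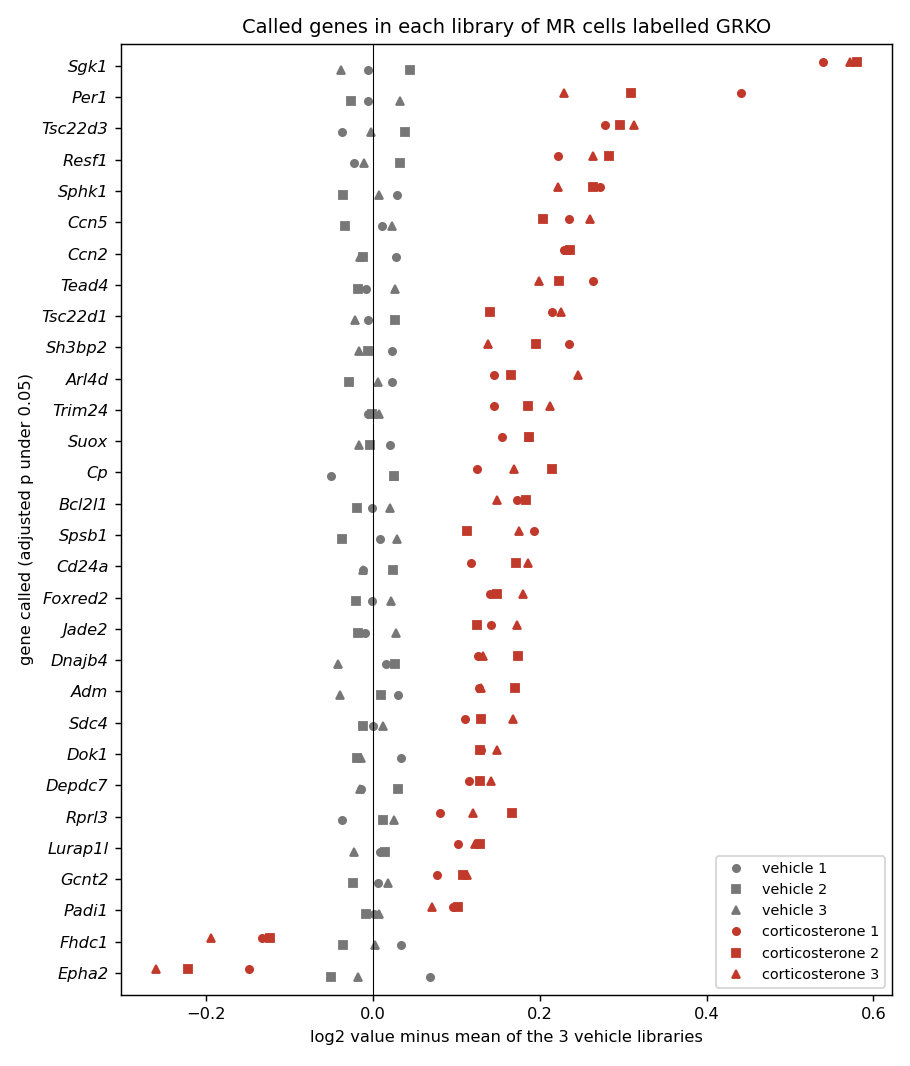
Log2 value of each of 30 called genes in each library of MR cells labelled GRKO, minus the mean of the 3 vehicle libraries; rows are genes, grey symbols vehicle and red symbols corticosterone libraries, with shape giving the replicate. The 28 raised genes drawn lie to the right of their vehicle libraries, with Sgk1 apart from the rest, and Fhdc1 and Epha2 lie to the left.

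Sgk1 had the largest difference on the log2 scale of the library values. In the authors' deposited log2 fold changes Per1 (1.48), Rprl3 (1.05) and Ccn2 (0.95) stood above Sgk1 (0.87), so the ranking depends on the scale. Sgk1 was at 13.33, 13.38 and 13.30 with vehicle and at 13.87, 13.91 and 13.91 with corticosterone (chr10:21993890-21999902, mm10). All 3 treated libraries lay above all 3 vehicle libraries, by 0.56 ± 0.026 (SE, n = 3 and 3; limma, adjusted p = 8.77e-07). Its promoter is shown because of the element it carries, together with those of 3 other raised genes. In capitals in Sgk1 is the 15-base palindrome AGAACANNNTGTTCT, the textbook binding element of GR and MR, and in capitals in Suox is the looser 13-base form GNACANNNTGTNC, which also covers the longer one. Sequences are RefSeq's for GRCm38.p6 (mm10), read 5′ to 3′ on the gene's strand from 250 bases before to 50 bases after the start: Sgk1 chr10:21993640-21993939 on the plus strand, Suox chr10:128673869-128674168 on the minus strand, Per1 chr11:69098699-69098998 on the plus strand and Tsc22d3 chrX:140548522-140548821 on the minus strand. Per1 and Tsc22d3 follow as the genes with the next largest differences, on the scale of the library values, that have a sequence. Neither window holds these letters.
Sgk1: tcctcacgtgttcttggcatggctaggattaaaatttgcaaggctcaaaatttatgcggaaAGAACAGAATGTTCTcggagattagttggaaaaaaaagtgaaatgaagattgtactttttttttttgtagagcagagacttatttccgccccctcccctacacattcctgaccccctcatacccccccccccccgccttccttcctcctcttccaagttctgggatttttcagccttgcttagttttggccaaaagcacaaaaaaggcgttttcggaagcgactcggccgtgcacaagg
Suox: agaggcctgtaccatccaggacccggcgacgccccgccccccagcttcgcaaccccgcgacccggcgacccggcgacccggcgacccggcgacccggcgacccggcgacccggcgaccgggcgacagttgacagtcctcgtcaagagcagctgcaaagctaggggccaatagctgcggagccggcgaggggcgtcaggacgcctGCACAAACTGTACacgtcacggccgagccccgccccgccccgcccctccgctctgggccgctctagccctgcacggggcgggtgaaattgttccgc
Per1: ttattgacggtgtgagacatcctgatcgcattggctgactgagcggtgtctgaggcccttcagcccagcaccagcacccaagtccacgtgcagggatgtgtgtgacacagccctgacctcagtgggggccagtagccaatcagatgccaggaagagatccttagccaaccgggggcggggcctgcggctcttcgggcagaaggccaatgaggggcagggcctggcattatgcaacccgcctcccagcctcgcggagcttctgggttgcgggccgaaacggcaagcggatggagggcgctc
Tsc22d3: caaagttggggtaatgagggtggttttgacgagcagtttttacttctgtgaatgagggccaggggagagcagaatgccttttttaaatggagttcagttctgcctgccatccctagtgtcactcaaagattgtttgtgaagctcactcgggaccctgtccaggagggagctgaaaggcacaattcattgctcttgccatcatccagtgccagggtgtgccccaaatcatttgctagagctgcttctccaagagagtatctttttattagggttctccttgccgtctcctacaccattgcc

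The Sgk1 palindrome spans positions -189 to -175 before the start and the Suox one -46 to -34. Over all 32851 RefSeq promoters of this length, 3 held the 15-base form on either strand (0.00913%), those of Sgk1, Acnat2 and Gm35041, and the last 2 genes were not among the genes tested. The 13-base form was in 156 promoters (0.475%). Of the 29 raised genes, 20 had a promoter at the start given in the table, and Sgk1 and Suox were the 2 with the 13-base form. A single arm, TGTTCT on either strand, which the palindrome contains, was in 4 of these 20 (20%) and in 19% of all promoters. Read from the promoters instead, 39 genes with the 13-base form were tested and 2 of them rose, again Sgk1 and Suox. That is 5.13%, beside 0.232% of all genes tested. The median difference over the 39 was 0.0028 on the log2 scale. These are letter matches in a window of 300 bases and show no binding.

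Per1 and Tsc22d3, both classical targets of corticosteroids, were among the genes that rose most. Per1, a repressor of the circadian clock (chr11:69098949-69109957), rose by 0.33 ± 0.040 (adjusted p = 0.00447), from 8.57, 8.55 and 8.61 to 9.01, 8.88 and 8.80. Its 3 treated libraries were above every vehicle library but spread more widely than those of any other gene named so far. With variance settings that allow for outlying genes, its adjusted p was 0.26 at the same difference. Tsc22d3, also called GILZ, an anti-inflammatory leucine zipper protein (chrX:140539529-140548571), was at 10.77, 10.84 and 10.80 with vehicle and 11.08, 11.10 and 11.12 with corticosterone, a rise of 0.30 ± 0.024 (adjusted p = 0.000112). Its relative Tsc22d1 rose by 0.19 ± 0.026 (adjusted p = 0.00842).

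Among signalling and matrix genes, Sphk1, the kinase that makes sphingosine 1-phosphate, rose by 0.25 ± 0.023 (adjusted p = 0.000451), from 10.26, 10.20 and 10.24 to 10.51, 10.50 and 10.45. The matricellular genes Ccn2 (Ctgf in the table), which encodes connective tissue growth factor, and Ccn5 (Wisp2 in the table) each rose by 0.23. Ccn2 was at 8.80, 8.76 and 8.76 with vehicle and at 9.01 in all 3 corticosterone libraries (SE 0.018, adjusted p = 8.52e-05), and Ccn5 went from 11.84, 11.80 and 11.86 to 12.07, 12.04 and 12.09 (SE 0.024, adjusted p = 0.000883). The groups were apart for both. Tead4, a DNA-binding partner of the YAP coactivator, rose by 0.23 ± 0.023 (adjusted p = 0.000709). Of the adaptor proteins, Sh3bp2 rose by 0.19 ± 0.026 and Dok1, an inhibitor of tyrosine kinase signalling, by 0.14 ± 0.021 (adjusted p = 0.00861 and 0.0234). Adm, the vasodilator peptide adrenomedullin, and Sdc4, a heparan sulphate proteoglycan, each rose by 0.14 (adjusted p = 0.0303 and 0.0325).

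Of genes for nuclear and survival functions, Resf1 (2810474O19Rik in the table) rose by 0.26 ± 0.025 (adjusted p = 0.000677), from 13.32, 13.38 and 13.34 to 13.57, 13.63 and 13.61. Trim24, a cofactor of nuclear receptors, rose by 0.18 ± 0.022 (adjusted p = 0.00418), and Jade2 by 0.15 ± 0.021 (adjusted p = 0.0116). Bcl2l1, which encodes the survival protein BCL-XL, rose by 0.17 ± 0.021 (adjusted p = 0.00534). Suox, the mitochondrial sulphite oxidase, was at 10.66, 10.63 and 10.62 with vehicle and 10.79, 10.82 and 10.82 with corticosterone, a rise of 0.18 ± 0.021 (adjusted p = 0.00311). Cp, the copper-carrying ferroxidase ceruloplasmin, rose by 0.17 ± 0.027, Spsb1, a substrate receptor of a ubiquitin ligase, by 0.16 ± 0.024 and Arl4d, a small GTPase, by 0.19 ± 0.026 (adjusted p = 0.0287, 0.0189 and 0.0109). Cd24a and Foxred2 each rose by 0.16 (adjusted p = 0.0234 and 0.00686). The remaining raised genes, Dnajb4, Depdc7, Lurap1l, Gcnt2, Padi1 and Rprl3, rose by 0.09 to 0.14. Rprl3 belongs to a family of RNase P RNA-like copies, so its value is uncertain.

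The 2 lowered genes were Epha2, an ephrin receptor tyrosine kinase (chr4:141301221-141329384), and Fhdc1, a formin (chr3:84442196-84479491). Epha2 was at 13.82, 13.70 and 13.73 with vehicle and 13.60, 13.53 and 13.49 with corticosterone, a difference of -0.21 ± 0.035 (adjusted p = 0.031). Fhdc1 was at 10.86, 10.79 and 10.82 and at 10.69, 10.70 and 10.63, a difference of -0.15 ± 0.026 (adjusted p = 0.0366). In both, the lowest vehicle library stood above the highest treated one.

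Several classical corticosteroid-induced genes did not pass the test. The difference was 0.03 ± 0.024 for Fkbp5, the chaperone that restrains steroid receptors, 0.04 ± 0.020 for Klf9, 0.09 ± 0.034 for the phosphatase gene Dusp1 and 0.01 ± 0.019 for Nfkbia, the NF-kB inhibitor (adjusted p = 0.702, 0.553, 0.473 and 0.847). Fkbp5 was at 11.57, 11.62 and 11.63 with vehicle and 11.63, 11.62 and 11.67 with corticosterone, so the groups overlapped. Errfi1 and Pdk4 were at 0.01 ± 0.021 and 0.00 ± 0.017 (adjusted p = 0.918 and 0.983), and Zbtb16 was listed at 0 in all 6 libraries. Neither receptor gene passed, with -0.04 ± 0.023 for Nr3c1 and 0.09 ± 0.047 for Nr3c2 (adjusted p = 0.627 and 0.575).

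Of 39 corticosteroid-induced genes listed, 31 were tested, 5 rose (Sgk1, Per1, Tsc22d3, Tsc22d1 and Bcl2l1) and none fell, with a list median of 0.01. In parental MR cells 20 of 33 members tested rose and 2 fell, with a median of 0.29. Over all genes tested, 0.232% rose and 0.016% fell in cells labelled GRKO, and 2.08% rose and 1.04% fell in parental MR cells. Of 19 genes tested as YAP and TEAD targets or matricellular genes, 3 rose, Ccn2 and Ccn5 among them, and none fell, while other members had negative differences that did not pass, such as Ankrd1 at -0.15 and Amotl2 at -0.18. Without corticosterone library 1, 3 members rose and 3 fell, namely Amotl2 at -0.27, Ajuba at -0.14 and Ccn1 at -0.22 (adjusted p = 0.00943, 0.0276 and 0.0329). In each of the 3 that fell, library 1 had the highest treated value (Amotl2 at 13.66 beside 13.37 and 13.41), so leaving it out favours these calls. Of the fits that leave out 1 library, lists are given for this one only, whose library had been seen to lie beside vehicle libraries. In that fit 45 of all 12517 genes tested rose and 132 fell. Sgk1 was the 1 gene called of 14 tested for sodium and potassium transport. The sodium channel genes Scnn1a, Scnn1b and Scnn1g lay below the filter, Scnn1g being listed at 0. Per1 was the 1 called of 18 clock genes, with Per2 at 0.05 and Per3 at 0.01.

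Genes of cholesterol synthesis, the list with the highest median, included none called of 22 tested, but 19 of the 22 had a positive difference. Their median was 0.07, beside -0.00043 over all genes tested, and over the 12188 genes tested in both lines 5946 were positive. Hmgcs1, an early enzyme of the pathway, was at 15.28, 15.34 and 15.21 with vehicle and 15.37, 15.42 and 15.40 with corticosterone, apart in the 2 groups, yet its difference of 0.12 had an adjusted p of 0.261. Insig1, the sterol sensor that restrains the pathway, had 0.14 ± 0.028 (adjusted p = 0.0861), and its adjusted p-value in the authors' deposited table was 0.000576. Without corticosterone library 1, 3 members rose, namely Insig1 by 0.16, Fdft1 by 0.12 and Hsd17b7 by 0.11 (adjusted p = 0.0283, 0.0468 and 0.0481). In each of these 3, library 1 had the lowest treated value (Fdft1 at 12.27 beside 12.33 and 12.31), so leaving it out favours these calls. The list median was 0.06 with aldosterone, on the same vehicle libraries, and -0.03 with corticosterone in parental MR cells. The 32 replication-dependent histone genes went the other way, with 28 negative, a median of -0.06 and none called. They are near-identical copies that reads may not tell apart, and corticosterone library 2 had a histone median of -0.17 against the vehicle mean, where libraries 1 and 3 had -0.01 and 0.01. The part of corticosterone library 2 in the list's median was not tested. Among the vehicle libraries, number 2 had the lowest histone median, at -0.07. With aldosterone, on the same vehicle libraries, the histone median was -0.16 and 1 of 32 genes was positive. In all, 15 of the 21 lists had no member called, and 5 of the 21 without corticosterone library 1, where 177 of 12517 genes were called.

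**Figure D2:**
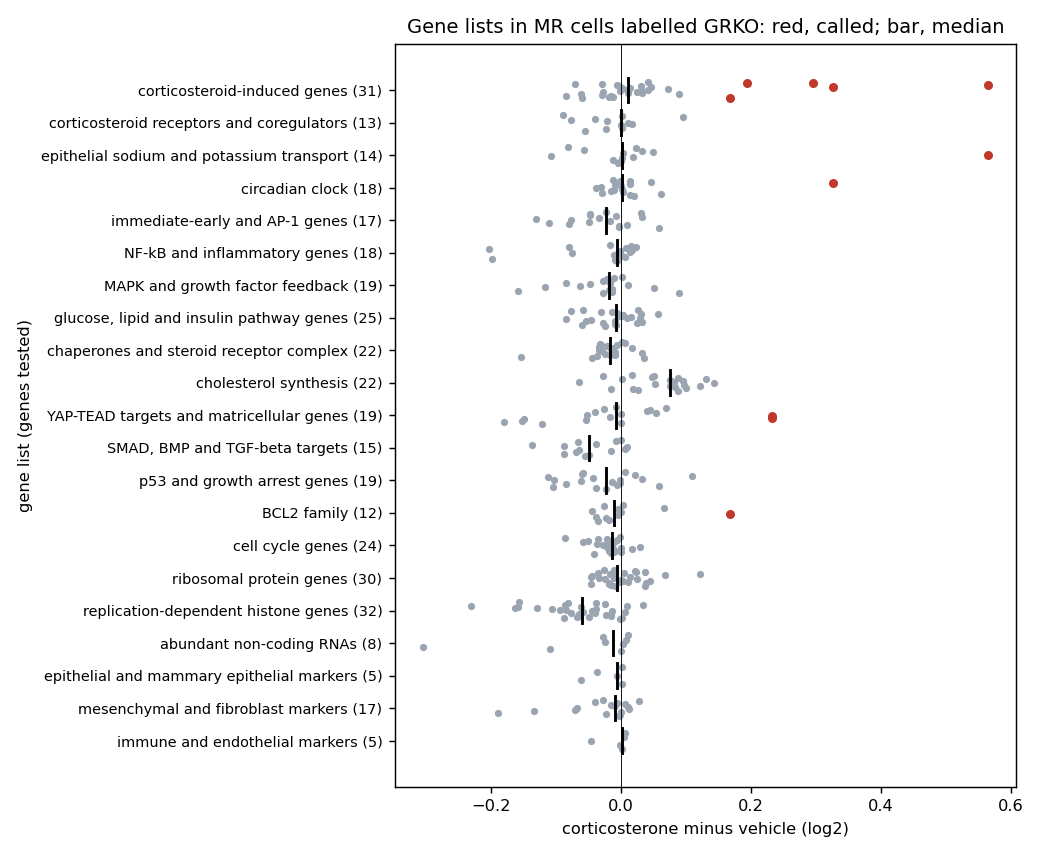
Differences between corticosterone and vehicle (log2) of the genes tested in each of 21 lists in MR cells labelled GRKO; each point is a gene, red where called, 1 gene is not drawn, and the black bar is the list's median. Called genes drawn lie in 5 of the lists, and the bar of cholesterol synthesis is the farthest to the right at 0.07.

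Without corticosterone library 1, the treated library that lay beside vehicle libraries, 177 of the 12517 genes tested were called. Of these 45 were raised and 132 lowered, and all 31 genes were among them. In 131 of the 132 lowered genes library 1 lay above the mean of corticosterone libraries 2 and 3, so leaving it out favours calls of a fall. The median transcript length of the 132 was 4164 bases, beside 2830 over all genes tested, and the part of length in these calls was not tested. With 1 library left out at a time, 14 to 177 genes were called, and 11 of the 31 genes passed in each of the 6 fits, among them Sgk1, Per1, Tsc22d3, Resf1, Sphk1, Ccn2, Ccn5, Tead4, Trim24 and Suox. Adm, Lurap1l, Gcnt2, Dnajb4, Sdc4 and Rprl3 passed in 1 of the 6, and Epha2 and Fhdc1 in 2. Without the trend of variance with level, 10 of the 31 genes passed.

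**Figure D3:**
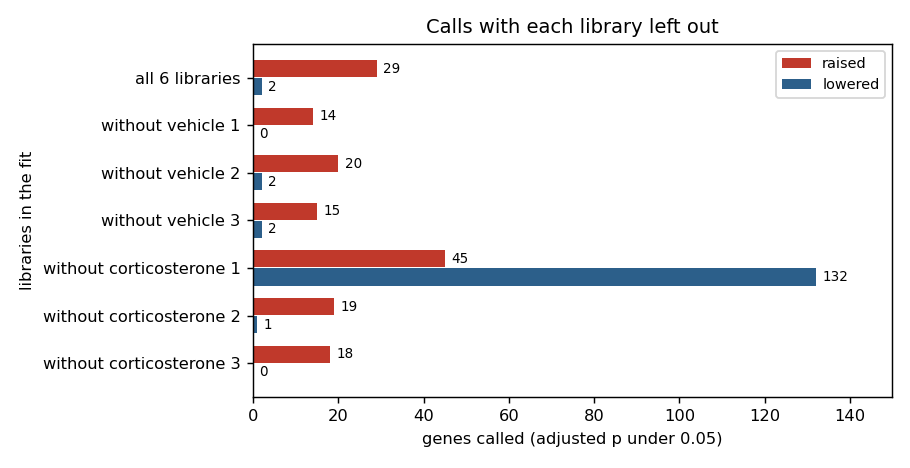
Number of genes raised (red) and lowered (blue) by corticosterone in MR cells labelled GRKO with all 6 libraries and with each library left out. Without corticosterone library 1 the lowered genes number 132, and in the other fits 0 to 2.

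How the response compared with that of cells not labelled GRKO was tested against parental MR cells, whose libraries are all different ones. There corticosterone raised 259 genes (2.08% of 12457 tested) and lowered 129 (1.04%). Of the 29 genes raised in cells labelled GRKO, 25 were also raised in parental MR cells (86.2%), and these 25 were 10.2% of the 245 parental genes that were tested in both lines. The exceptions were Resf1, Ccn5, Cp and Rprl3, with parental differences of 0.25, 0.16, 0.20 and -0.05 (adjusted p = 0.0514, 0.0864, 0.0753 and 0.827). In parental MR cells the authors' deposited log2 fold changes were 0.36 for Resf1, 0.53 for Ccn5, 0.41 for Cp and -0.16 for Rprl3. The authors' deposited adjusted p-values of Resf1, Ccn5 and Cp were 0.0016, 0.038 and 0.019, so these exceptions depend on the fit. Over the 245 genes the median difference was 0.27 in parental MR cells and 0.02 in cells labelled GRKO, where 179 were positive and 66 negative. Over the 129 genes lowered in parental MR cells the medians were -0.20 and -0.03, and 108 were negative in cells labelled GRKO, none of them called. Of all 12188 genes tested in both lines, 5946 were positive and 6242 negative in cells labelled GRKO. Both sets were chosen for passing in the parental libraries, which by itself enlarges the parental medians, so the gap between the medians is in part built in.

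The difference between the responses was itself called for 359 genes (2.81% of 12769 tested; limma interaction, adjusted p under 0.05), 252 lower in cells labelled GRKO (1.97%) and 107 higher. Of the 29 raised genes, 25 responded less in cells labelled GRKO than in parental MR cells, although they had been chosen for their rise in the GRKO libraries. Tsc22d3 differed most on the scale of the library values. In parental MR cells it went from 10.85, 10.83 and 10.84 to 12.95 and 12.92, a rise of 2.10 beside 0.30. The difference was -1.80 ± 0.036 (interaction adjusted p = 7.74e-12). Sgk1 rose by 1.17 beside 0.56, a difference of -0.61 ± 0.047 (interaction adjusted p = 3.66e-06), from lower vehicle values of 12.28, 12.26 and 12.30, beside 13.30 to 13.38 in cells labelled GRKO. For Cd24a and Dnajb4, with differences of -0.21 and -0.19, the interaction passed in 3 of the 11 fits that leave out 1 library each, with adjusted p-values of up to 0.0959 and 0.126. For Tsc22d1, at -0.21, it passed in 10 of the 11, the exception being the fit without parental corticosterone library 1 (adjusted p = 0.0689). Vehicle levels were not tested between lines, because the tables were normalized separately.

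Other genes with strongly reduced responses were Arl4d (-1.38), Spsb1 (-1.32), Tsku (-1.05), Sphk1 (-1.03), Plin4 (-1.02), Hras (-0.98), Foxred2 (-0.93) and Bcl2l1 (-0.91). Tsku, Plin4, a coat protein of lipid droplets, and Hras were not called in cells labelled GRKO, where their differences were 0.07, -0.03 and 0.02. The same held for Fkbp5, which rose by 0.88 in parental MR cells and whose response differed by -0.85 ± 0.043 (interaction adjusted p = 4.3e-08). The interaction was likewise called for Klf9, Dusp1, Nfkbia, Errfi1 and Pdk4, at -0.34 to -0.58.

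For 4 raised genes the difference between lines was not called, and the intervals show what the data allow. The 95% interval of the difference was -0.13 to 0.14 for Resf1, -0.04 to 0.18 for Ccn5, -0.16 to 0.10 for Cp and 0.06 to 0.28 for Rprl3 (interaction adjusted p = 0.983, 0.65, 0.911 and 0.115; intervals unadjusted). It was -0.15 to 0.13 for Epha2 and -0.09 to 0.09 for Fhdc1, which had parental differences of -0.20 and -0.15 (interaction adjusted p = 0.97 and 0.995). Ccn5 had vehicle values of 11.80 to 11.86 in cells labelled GRKO and 8.32 to 8.45 in parental MR cells.

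The 10 genes with the largest higher difference in cells labelled GRKO were all lowered in parental MR cells. Thbs1, the matricellular protein thrombospondin 1, was at 15.04, 15.04 and 15.07 with vehicle and 14.31 and 14.41 with corticosterone in parental MR cells, and at 16.57, 16.55 and 16.63 and 16.65, 16.66 and 16.64 in cells labelled GRKO. Its responses of -0.69 and 0.07 differed by 0.76 ± 0.046 (interaction adjusted p = 2.65e-07). Ankrd1, a target of YAP, differed by 0.53 ± 0.057 and Insig1 by 0.49 ± 0.049 (interaction adjusted p = 7.6e-05 and 4.22e-05), Insig1 having fallen by 0.35 in parental MR cells. The remaining ones of the 10 largest were 1190002N15Rik, Ahr, Btg1, Lpin1, Dusp4, Plk2 and Irs1, at 0.35 to 0.46. Parental libraries numbered 3, 1 of each group, had 45S ribosomal RNA (Rn45s) at 21.09 and 21.31, beside 17.95 to 18.47 in all other libraries compared. Without both, 401 genes had a called difference, 291 of them among the 359.

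**Figure D4:**
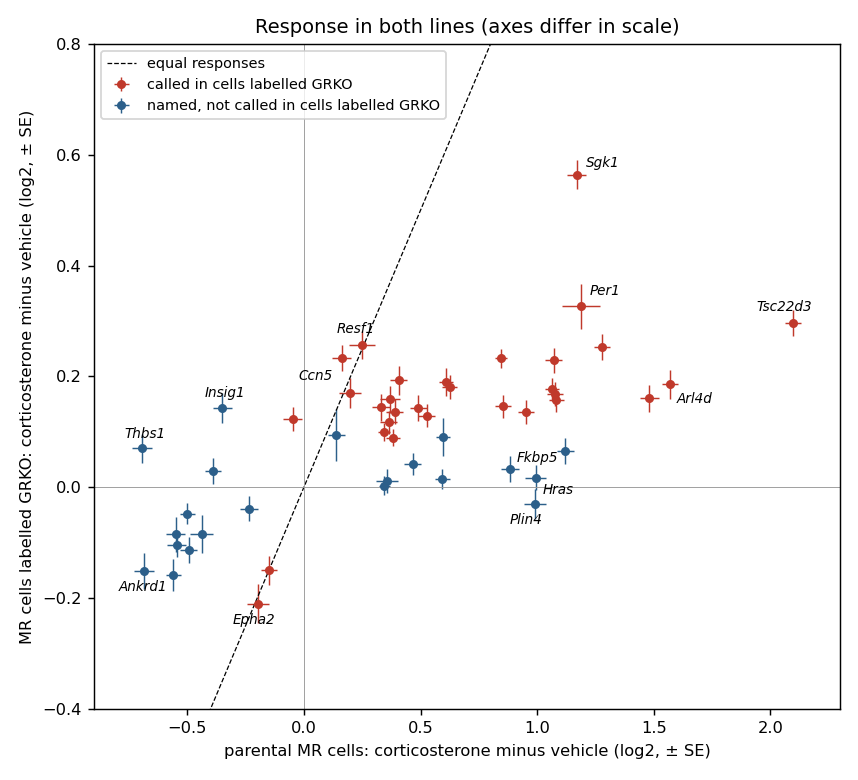
Corticosterone minus vehicle (log2, ± SE) of the named genes in parental MR cells (horizontal axis) and in MR cells labelled GRKO (vertical axis, on a wider scale); red points were called in cells labelled GRKO, blue points were not, and the dashed line marks equal responses. Most red points lie below the line, Resf1, Epha2 and Fhdc1 lie near it, and Insig1 and Thbs1 lie on opposite sides of 0 in the 2 lines.

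Beside the values for corticosterone stand those of aldosterone in the same cells, which share the vehicle libraries, so likeness between the 2 hormones is in part built in, and no test between them was made. Doses differed, at 100 nM and 10 nM. Sgk1 was at 13.90, 13.81 and 13.84 with aldosterone in its own table, with vehicle at 13.25, 13.30 and 13.21, and rose by 0.59 ± 0.027, beside 0.56 with corticosterone. Per1 rose by 0.30 beside 0.33, Tsc22d3 by 0.25 beside 0.30 and Bcl2l1 by 0.22 beside 0.17. The median over the 29 genes was 0.18 with aldosterone and 0.17 with corticosterone. Rprl3 had -0.01 with aldosterone and 0.12 with corticosterone. Fkbp5 had 0.07 and 0.03, Tsku 0.05 and 0.07, and Hras 0.00 and 0.02, none of which passed with either hormone (limma).

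**Figure D5:**
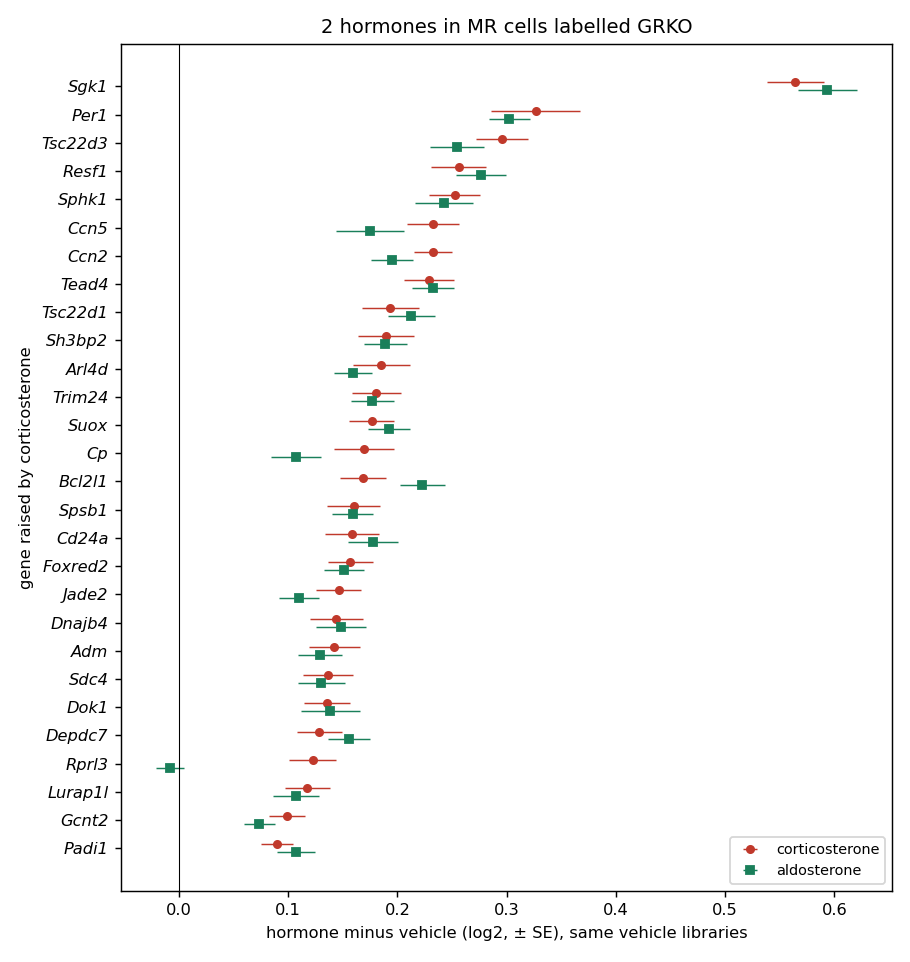
Difference from vehicle (log2, ± SE) of 28 genes raised by corticosterone in MR cells labelled GRKO, for corticosterone (red circles) and aldosterone (green squares), both against the same vehicle libraries. Sgk1 is the highest for both, at 0.56 and 0.59, and Rprl3 is at 0.12 and -0.01.

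The same hormone was given to cells carrying a form of MR that the labels call MR580C, for which the authors' deposited fold changes were read. In the authors' deposited table of parental MR580C cells all 29 genes had a positive log2 fold change with an adjusted p-value under 0.05, beside 5.98% of the 12383 genes found in both tables. The authors' deposited table of MR580C cells labelled GRKO lists 404 genes, and 17 of the 29 genes were among them (58.6% of the 29 and 4.21% of the 404). All 17 had a positive fold change and an authors' deposited adjusted p-value under 0.05. How the 404 were chosen is not given, so no share over all genes can stand beside these. Absence from the 404 does not show that a gene was unchanged. Of these 17 genes, 8 had a larger fold change in MR580C cells labelled GRKO than in MR cells labelled GRKO in the authors' deposited tables and 9 a smaller one. In the authors' deposited tables Per1 had log2 fold changes of 1.48 in MR cells labelled GRKO and 1.70 in MR580C cells labelled GRKO, Tsc22d3 had 0.61 and 1.02, Sphk1 had 0.60 and 0.81, and Cp had 0.51 and 0.74. Among the smaller ones in the authors' deposited tables were Sgk1 with 0.87 and 0.26, Resf1 with 0.40 and 0.19, Tead4 with 0.54 and 0.23 and Spsb1 with 0.61 and 0.38. Epha2 had -0.32 and -0.44 and Fhdc1 -0.32 and -0.29 in the authors' deposited tables. These fold changes carry no SE or library values here, and the difference between the MR forms was not tested.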

How the data were processed

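Total RNA libraries of MR cells labelled GRKO and of parental MR cells were taken from tables of 24940 genes. The submitters' processing notes name STAR 2.7.0f, HOMER 4.10.4, cutadapt 1.18, Trimmomatic, bcl2fastq 2.20, Bowtie2 2.3.4.1 and deepTools, with mm10, and do not say which served the RNA. Reads in exons were counted with HOMER, per the file headers. The deposited library values are on a log2 scale, taken from the values to be a regularized log, which the headers do not name. Depth per gene cannot be recovered from it, so no count model or counting interval was used. For hormone against vehicle, each table also holds a log2 fold change and a p-value, raw and adjusted, as the authors deposited them.

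Genes that varied (by over 1e-06) and reached a linear 10 in 3 libraries (2 for parental MR cells) were fitted with limma 3.58.1 (R 4.3.3), with trend, 1 mean per group, 2-sided tests, Benjamini-Hochberg adjustment over all genes tested and a threshold of 0.05. A ± beside a difference is limma's standard error (SE). The interaction between lines was fitted over both tables with an intercept for each. The fits were tested on simulated data. For 1 parental corticosterone sample (replicate 2) no column was used. Named genes were the 20 most raised and 12 most lowered called genes with separate groups, 12 corticosteroid genes, called members of 21 lists and the 10 largest interactions each way, and the other 9 called genes were added after their values were seen. Of the called genes, 1 is counted but its result is not reported here. Members, lists and tests were chosen with earlier results of these data known. Promoters came from RefSeq (GRCm38.p6), by symbol and a start within 5 bases. Alternatives were other filters, centring, variance settings, a replicate block and leaving out libraries.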

Additional observations from a re-analysis of the deposited data

Results flagged for a closer look

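What stood out was a difference between both lines in the response to the same dose of corticosterone, called by the limma interaction for 359 genes. Values below are the response in MR cells labelled GRKO minus that in parental MR cells, for the genes named in the text. They are on the log2 scale of the library values, and their order depends on the scale. In the authors' deposited log2 fold changes Ccn2 had 0.95 in cells labelled GRKO and 3.27 in parental MR cells. Arl4d had 0.63 and 2.81 there, and Pdk4 had 0.02 and 1.47. The widest gaps on the side of a smaller or absent rise were in Tsc22d3 (-1.80), Arl4d (-1.38), Spsb1 (-1.32), Tsku (-1.05), Sphk1 (-1.03), Plin4 (-1.02), Hras (-0.98), Foxred2 (-0.93), Bcl2l1 (-0.91), Suox (-0.89) and Per1 (-0.86). Intermediate ones were in Fkbp5 (-0.85), Tead4 (-0.84), Dok1 (-0.82), Jade2 (-0.71), Ccn2 (-0.61), Sgk1 (-0.61), Nfkbia (-0.58), Dusp1 (-0.51), Trim24 (-0.44), Klf9 (-0.42), Sh3bp2 (-0.42) and Depdc7 (-0.40). Those of the smallest size were in Adm (-0.35), Errfi1 (-0.35), Pdk4 (-0.34), Padi1 (-0.29), Sdc4 (-0.25), Lurap1l (-0.25), Gcnt2 (-0.24), Tsc22d1 (-0.21), Cd24a (-0.21) and Dnajb4 (-0.19). On the other side were Thbs1 (0.76), Ankrd1 (0.53), Insig1 (0.49), 1190002N15Rik (0.46), Ahr (0.45), Btg1 (0.44), Lpin1 (0.42), Dusp4 (0.40), Plk2 (0.38), Irs1 (0.35) and Nr3c1 (0.19). Nr3c1, the receptor gene named in the label, fell by 0.23 in parental MR cells and had a difference of -0.04 in cells labelled GRKO. With 1 library left out at a time, the difference between lines for Nr3c1 passed in 5 of 11 fits (adjusted p-values of up to 0.111).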

How the results depend on the processing

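The count of 31 called genes was 27 with no filter on low values, 31 with a stricter filter, 36 with libraries centred on the median, 37 with robust variance settings and 35 without histone genes and abundant non-coding RNAs. It was 10 without the trend, 78 by the authors' deposited adjusted p-values (69.2% of them raised, beside 93.5%), 4 with a difference of at least 0.26 as well, and 14 to 177 with 1 library left out. The cause was not tested, except that the fold threshold by its construction keeps large differences. Whether the replicate numbers pair the libraries is not settled, and the main fits take no account of them. Correlations of deviations were 0.34 and 0.29 for numbers 1 and 2, the highest of all, and -0.09 for number 3. Libraries of unlike number had -0.45 to 0.28. With a replicate block 66 genes were called, 40 raised and 26 lowered (60.6% raised), and the difference between lines was called for 739. That difference, called for 359 genes, was called for 275 to 434 with 1 library left out, 346 with the stricter filter, 373 with no filter, 361 with centring, 338 without the trend, 376 with robust settings and 401 without both parental libraries numbered 3, an alternative chosen after seeing the data. The share of raised genes' promoters with a motif was 10.0% for the 13-base form, 5.0% for the 15-base form and 20% for a single arm. Sign changes were seen in differences near 0 that were never called: with 1 library left out, Pdk4 ranged from -0.015 to 0.014 and Errfi1 from -0.0021 to 0.025 in cells labelled GRKO. The difference between lines ranged in this way from -0.056 to 0.022 for Cp, -0.051 to 0.022 for Epha2, -0.038 to 0.035 for Fhdc1, -0.11 to 0.020 for Nr3c2 and -0.044 to 0.058 for Resf1. It was 0.022 for Cp with the replicate block, 0.0094 for Fhdc1 with centring, and -0.020 for Resf1 and 0.041 for Fhdc1 without both parental libraries numbered 3. Logs without read counts, 3 libraries a group and 2 parental corticosterone libraries limit the precision, and small responses near 0.1 rest on a spread estimated over all genes.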
